A study of Drosophila melanogaster with 2 samples.

Results

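The mRNAs described here encode the TOR kinase complexes of *Drosophila melanogaster* and their closest regulators and effectors. They are the 10 genes *Tor*, *raptor*, *rictor*, *Sin1*, *gig*, *Tsc1*, *Rheb*, *Akt1*, *S6k* and *Thor*, taken by name from a table of 16863 genes. ME31B, a DEAD-box RNA helicase that represses maternal mRNAs, was immunoprecipitated from stage 14 oocytes, the last stage before egg activation, and the RNA that came down was sequenced as 1 library beside 1 library of the input lysate. Both libraries came from the same kind of culture, whose labels give a w1118 background carrying eGFP-Me31B, whereas the methods of the paper name plain w1118 flies as the source of the oocytes. How many flies or oocytes were pooled is not stated in the paper or the labels, and the lysate entered the immunoprecipitation at 1.1 mg/ml. The methods name anti-GFP as the antibody, and the results of the paper describe a pull-down of ME31B-GFP complexes from these oocytes. The label of the immunoprecipitate names no antibody, and that it holds the anti-GFP pull-down is assumed throughout. Each gene has 1 FPKM value per library, that is fragments scaled to transcript length and to the mapped reads of the library, and FPKM can be compared between genes because it is per length. Occupancy was the ratio of the FPKM in the immunoprecipitate to that in the input. No library of a control immunoprecipitate was available here, so binding by ME31B and nonspecific recovery cannot be told apart in this ratio. With 1 library per condition there was no replicate check, no spread and no p-value, and because read numbers are unknown no counting interval could be given.

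TOR is a protein kinase that couples growth to nutrients, and it works in a pair of complexes. TORC1, defined by Raptor, promotes translation by phosphorylating S6k and the eIF4E-binding protein Thor, and it is switched on by the GTPase Rheb. The complex of Tsc1 and gigas, the fly Tsc2, holds Rheb in its inactive form. TORC2, defined by Rictor and Sin1, phosphorylates Akt1, which acts in the insulin branch and in turn restrains the Tsc1-gigas complex. In the fly ovary, TOR signaling supports germline growth, and translation of many, but not all, stored maternal mRNAs is held back in the mature oocyte until egg activation.

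The libraries carried the RNAs of the labelled cell. The 7 germline and oocyte markers (*osk*, *nos*, *bcd*, *vas*, *pgc*, *gnu* and *dhd*) ranged from 12.4 to 12458 FPKM in the input against from 11.4 to 13967 FPKM in the immunoprecipitate. RNA of the follicle cells that surround the oocyte was also present. All 11 eggshell and yolk markers were above 0.5 FPKM in the input. They summed to 869 FPKM in the input against 502 FPKM in the immunoprecipitate, against 14789 and 20576 FPKM for the germline list. Of the germline sums, *dhd* alone gave 12458 and 13967 FPKM. *osk*, *vas* and *bcd* were lower in the immunoprecipitate than in the input, and *nos*, *pgc*, *gnu* and *dhd* were higher. Of 8 markers of muscle, neurons, blood cells and gut, *Act88F*, *elav* and *Hml* were listed at 0 in both libraries. The list summed to 30.4 FPKM in the input against 19.8 FPKM in the immunoprecipitate. Most of it came from the gut genes *alphaTry*, with 20.1 and 12.2 FPKM, and *Jon65Aiii*, with 8.72 and 7.13 FPKM. In the input, *Jon65Aiii* lay between *gig* at 6.93 FPKM and *Tor* at 9.28 FPKM, and *alphaTry* was above both. *Thor*, at 1.31 FPKM in the input, was below both gut genes and between the yolk genes *Yp1* and *Yp2*, at 1.12 and 1.58 FPKM. In the immunoprecipitate, both gut genes were above *Tor* at 2.16 FPKM and *gig* at 1.49 FPKM. They were also above *rictor* at 1.69, *Thor* at 5.17, *Tsc1* at 5.22 and *raptor* at 6.40 FPKM. *S6k*, *Sin1*, *Akt1* and *Rheb* were above both gut genes there. How much the follicle or gut cells gave to the values of the TOR genes was not tested, and in such bulk RNA fewer cells of a type and less RNA per cell cannot be told apart. A total of 6886 genes exceeded 0.5 FPKM in both libraries, and all 10 TOR genes were among them. The median of these genes had an occupancy of 1.26, which is 0.33 in log2 units, and occupancies on the log2 scale are given relative to this median gene unless stated otherwise.

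The mRNAs of the TOR pathway did not behave as 1 group. Those of *Tor*, *raptor*, *rictor* and the Tsc1-gigas complex were lower in the immunoprecipitate than in the input, those of *Sin1*, *Akt1* and *S6k* had nearly the same FPKM in both libraries, and those of *Rheb* and *Thor* were higher in the immunoprecipitate. Of the 10 genes, 5 (*Tor*, *raptor*, *rictor*, *gig* and *Tsc1*) lay 2-fold or more below the median gene, against 15.2% of all genes kept. A single gene, *Thor*, was at least 2-fold above it, against 9.48% of all genes kept. The median over the 10 genes was −0.99 on the log2 scale, a value that lies in the gap between these sets and describes none of the genes. Log2 occupancy ran from −3.32 for *rictor* to 1.64 for *Thor*, a 31.1-fold range, while the standard deviation over all genes kept was 0.92.

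**Figure D1:**
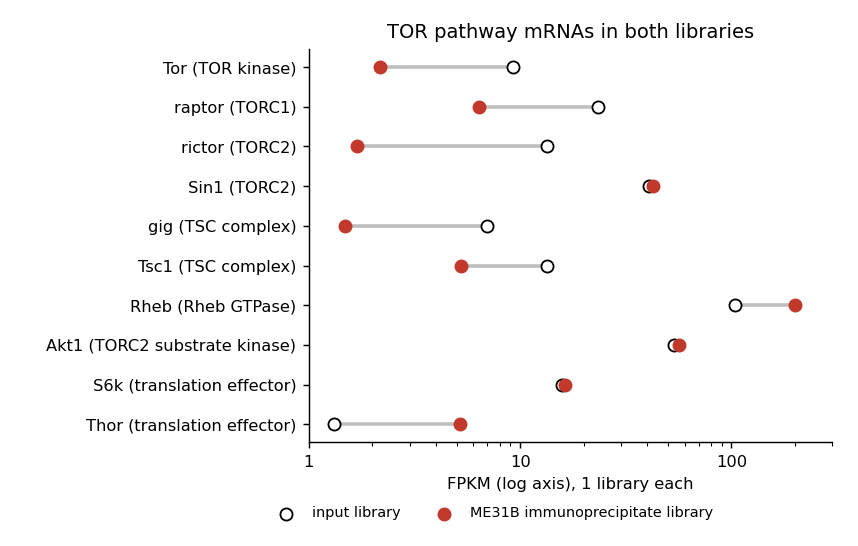
FPKM of each of the 10 TOR genes in the input library (open circles) and in the ME31B immunoprecipitate library (filled circles), on a log axis, with 1 library each and the gene's role in parentheses. In the immunoprecipitate *Tor*, *raptor*, *rictor*, *gig* and *Tsc1* lie between 1.49 and 6.40 FPKM, below their input values, and *Sin1*, *Akt1* and *S6k* nearly coincide in both libraries.

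As levels in the input, the 10 mRNAs spanned a 79.0-fold range. *Rheb* was the most abundant at 104 FPKM, followed by *Akt1* at 53.4 FPKM and *Sin1* at 40.6 FPKM. These 3 were above the median of the genes kept, 34.4 FPKM, and the other 7 were below it. *raptor* followed at 23.3 FPKM, *S6k* at 15.8 FPKM, *Tsc1* at 13.5 FPKM, *rictor* at 13.3 FPKM, *Tor* at 9.28 FPKM, *gig* at 6.93 FPKM and *Thor* at 1.31 FPKM. With no replicates it is not known which neighbors in this order differ beyond their spread. The message of the GTPase that activates TORC1 was thus 11.2-fold more abundant than that of the kinase and 15.0-fold more abundant than that of *gig*, which encodes the protein that inactivates it. In the immunoprecipitate the range was 134-fold, from 1.49 FPKM for *gig* to 199.6 FPKM for *Rheb*. *Rheb*, *Akt1* and *Sin1* were again the highest, whereas *Thor*, the least abundant in the input, stood level with *Tsc1*.

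*Tor* encodes the kinase itself and is shared by both complexes. The gene (CG5092, named mTor in RefSeq) lies on chromosome 2L of the dm6 build, from position 13004480 to 13013197, spans 8718 bases and overlaps no other annotated gene. A separate entry of the table, *tor*, is the receptor gene *torso* and was not used. *Tor* had 9.28 FPKM in the input against 2.16 FPKM in the immunoprecipitate. The level was thus 4.30-fold lower in the immunoprecipitate, a log2 occupancy of −2.44, and 1.26% of the genes kept had a lower occupancy. *Lst8*, which encodes the small WD-repeat protein bound to the kinase in both complexes, had 72.2 FPKM in the input against 99.6 FPKM in the immunoprecipitate, or a log2 occupancy of 0.13. The occupancy of *Lst8* was 5.93 times that of *Tor*, although their proteins sit in the same complexes.

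*raptor*, the defining subunit of TORC1, which brings substrates to the kinase, had 23.3 FPKM in the input against 6.40 FPKM in the immunoprecipitate. Its log2 occupancy was −2.20, 0.24 above that of *Tor*. The gene (CG4320) lies on chromosome X from 6082634 to 6090201. Of its span, 99.0% falls within the span of another protein-coding gene, *Mipp2*, whose own log2 occupancy was −0.38, from 25.1 FPKM in the input to 24.3 FPKM in the immunoprecipitate. Whether the counting used strand is not stated in the paper or the labels, so reads could be shared between *raptor* and *Mipp2*, and the value of *raptor* is less certain than those of genes that stand alone.

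The defining subunits of TORC2 lay far apart. *rictor* (CG8002, chromosome X from 19252111 to 19261240, no overlapping gene), which encodes the scaffold of TORC2, had 13.3 FPKM in the input against 1.69 FPKM in the immunoprecipitate. This was the lowest occupancy of the 10 genes, with a log2 value of −3.32, and 0.25% of the genes kept were lower. *Sin1* (CG10105, chromosome 2R from 14411825 to 14413851, no overlapping gene), which encodes the subunit that helps TORC2 recognize Akt, had 40.6 FPKM in the input against 42.3 FPKM in the immunoprecipitate. It was at −0.28, a little below the median gene, and a little above the input without centring, at 0.06. In the input *Sin1* was 3.04-fold more abundant than *rictor*, and in the immunoprecipitate 25.1-fold, so that their occupancies differed 8.23-fold.

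The subunit specific to TORC1 lay between those specific to TORC2. On the log2 scale *raptor* was 1.12 above *rictor*, and *Sin1* was 1.92 above *raptor*. *raptor* lay 0.40 below the mean of *rictor* and *Sin1*, or 0.023 below it once the trend on genomic span was removed, and this mean hides a difference of 3.04 between *rictor* and *Sin1*. The low genes *Tor*, *raptor* and *rictor* span 7568 to 9130 bases, whereas *Sin1* and *Lst8* span 2027 and 1816 bases.

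**Figure D2:**
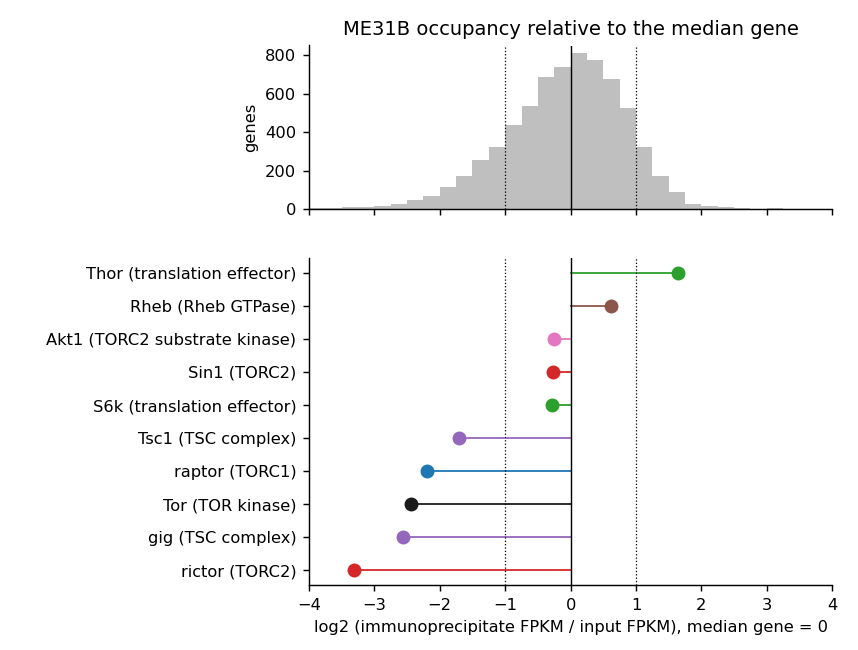
Top, number of genes by log2 occupancy relative to the median gene for the 6886 genes kept, with the 6 genes beyond 4 on the log2 scale placed in the outermost bins. Bottom, the 10 TOR genes from *Thor* at 1.64 to *rictor* at −3.32, colored by role, with dotted lines at 2-fold from the median gene; TORC2 genes are found both near 0 and at the lower end.

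The genes of the Tsc1-gigas complex and their target *Rheb* were on either side of the median gene. *gig* (CG6975, chromosome 3L from 20129181 to 20139010), the GTPase-activating subunit, had 6.93 FPKM in the input against 1.49 FPKM in the immunoprecipitate, or a log2 occupancy of −2.56. Parts of its span are shared with *CG7335* and *obst-J*, both listed at 0 in both libraries. *Tsc1* (CG6147, chromosome 3R from 24130307 to 24134654, no overlapping gene), which encodes its stabilizing partner, had 13.5 FPKM in the input against 5.22 FPKM in the immunoprecipitate, or a log2 occupancy of −1.70. *Rheb* (CG1081, chromosome 3R from 5568921 to 5570491, no overlapping gene) had 104 FPKM in the input against 199.6 FPKM in the immunoprecipitate. It stood 0.61 above the median gene, with 77.4% of the genes kept lower, and did not pass the 2-fold rule. The occupancy of *Rheb* was 8.98 times that of *gig* and 4.96 times that of *Tsc1*, and on the log2 scale it lay 2.74 above their mean.

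The kinases at the ends of the pathway had nearly the same occupancy before any trend was removed. *Akt1* (CG4006, chromosome 3R from 16099228 to 16105670, no overlapping gene), the TORC2 substrate, had 53.4 FPKM in the input against 56.2 FPKM in the immunoprecipitate. *S6k* (CG10539, chromosome 3L from 5797549 to 5810931), the TORC1 substrate that phosphorylates ribosomal protein S6, had 15.8 FPKM in the input against 16.4 FPKM in the immunoprecipitate. The span of *S6k* is shared in part with *CG42272*, listed at 0 in the input and at 0.10 FPKM in the immunoprecipitate. Log2 occupancies were −0.26 for *Akt1* and −0.28 for *S6k*, below the median gene, but 0.07 and 0.05 without centring, so their side depends on the centring. With the trend on genomic span removed, *Akt1* was at 0.28, *S6k* at 0.12 and *Sin1* at −0.45, and with the trend on input FPKM removed, *Akt1* was at −0.47, *S6k* at −0.07 and *Sin1* at −0.33. The values of *Akt1*, *S6k* and *Sin1* were thus within 0.02 of each other only before such adjustment.

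*Thor* stood apart at the upper end. It encodes the fly 4E-BP, a small protein that binds the cap-binding protein eIF4E and blocks translation until TORC1 phosphorylates it. The gene (CG8846, chromosome 2L from 3478434 to 3479612, no overlapping gene) had 1.31 FPKM in the input against 5.17 FPKM in the immunoprecipitate. The message was thus scarce in the input and 3.94-fold higher in the immunoprecipitate. Whether it came from the oocyte or from other cells was not tested. Its log2 occupancy was 1.64, higher than in 98.5% of the genes kept. Its level was low, since only 3.17% of the genes kept had a lower input FPKM, and its ratio rests on that value. The translation effectors differed 3.80-fold in occupancy, and their mean lay 2.74 above that of *Tor*, *raptor*, *rictor* and *Sin1* on the log2 scale. *eIF-4E*, the gene for the partner of Thor, also had a high occupancy, at 1.17, but its message was 272-fold more abundant than *Thor* in the input, with 356 FPKM there and 1013 FPKM in the immunoprecipitate.

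Among all protein-coding genes, those nearest to *rictor* in both libraries, by distance in log2 FPKM, were *Claspin*, *CG43163* and *Taf1*, with input levels of 13.3, 12.8 and 13.8 FPKM and immunoprecipitate levels of 1.64, 1.62 and 1.58 FPKM. Those nearest to *Thor* were *geko*, *CG30428* and *CG18749*, with input levels of 1.38, 1.39 and 1.15 FPKM and immunoprecipitate levels of 5.30, 4.76 and 5.20 FPKM. This likeness rests on 2 libraries.

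Occupancy moved with the genomic span of the genes, which includes introns and is not transcript length. Across 6569 protein-coding genes the Spearman rho between span and occupancy was −0.45, and across the 10 TOR genes it was −0.76. Genes are not independent replicates, and all values come from the same pair of libraries. Of the 7 TOR genes that span at least 4000 bases, 5 lay 2-fold or more below the median gene, against 28.3% of protein-coding genes in that class, and none was 2-fold above it, against 2.91%. Of the 3 shorter genes, *Thor*, *Rheb* and *Sin1*, none was 2-fold below it, against 7.71% in the shorter class, and *Thor* was 2-fold above it, against 11.9%. Within the longer class, *Tsc1*, at 4348 bases, was at −1.70, *raptor*, at 7568 bases, at −2.20, and *Tor*, at 8718 bases, at −2.44. *rictor*, at 9130 bases, was at −3.32, and *gig*, at 9830 bases, at −2.56. *Akt1*, at 6443 bases, was at −0.26, and *S6k*, with the longest span at 13383 bases, was at −0.28.

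The low genes were low for their span as well. When protein-coding genes were divided into 20 bins of span, 0.30% of the 328 genes in the bin of *rictor* had a lower occupancy. The corresponding shares were 2.43% for *gig*, 4.27% for *Tor*, 4.27% for *Tsc1* and 7.01% for *raptor*. *Akt1* and *S6k* were in the middle of their bins, with 60.1% and 59.0% of genes lower, *Sin1* was lower, at 24.4%, and *Rheb* was at 72.6%. *Thor* was high among short genes, with 97.9% of its bin lower. The running median of occupancy over span was then subtracted. *rictor* was at −2.83, *gig* at −2.10, *Tor* at −1.95, *raptor* at −1.66, *Tsc1* at −1.36 and *Thor* at 1.12. The same 5 genes were at least 2-fold low, against 11.1% of protein-coding genes.

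**Figure D3:**
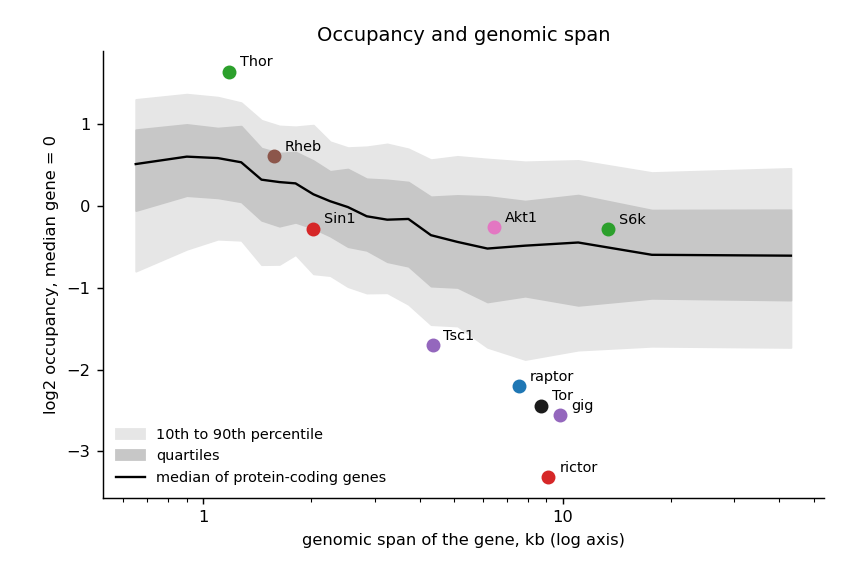
Log2 occupancy relative to the median gene against genomic span in kb, on a log axis. The line is the median of protein-coding genes in 20 bins of span, the darker band their quartiles and the lighter band the 10th to 90th percentile; *rictor*, *gig*, *Tor*, *raptor* and *Tsc1* lie below the lighter band, *Thor* lies above it, and *Akt1* and *S6k* lie near the line.

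The wider TOR pathway was read from 5 lists that hold 53 other genes, of which 52 were above 0.5 FPKM in both libraries. *melt* was not kept, being listed at 0 in the input and at 0.023 FPKM in the immunoprecipitate. Of the 52 genes, 7 (13.5%) lay 2-fold or more below the median gene and 5 (9.62%) were at least 2-fold above it, shares close to the 15.2% and 9.48% of all genes kept. The median of the 52 was −0.02, against −0.99 for the 10 TOR genes.

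In the amino acid branch, which brings TORC1 to the lysosome through the Rag GTPases, 2 of 17 genes were at least 2-fold above and 2 lay 2-fold or more below the median gene, with a median of 0.02. Both high genes encode subunits of Ragulator, the lysosomal anchor of the Rag GTPases, but its other subunits *Lamtor2*, *Lamtor3* and *Lamtor4* were at −0.06, 0.41 and −0.21. *Lamtor5* had 35.2 FPKM in the input against 133 FPKM in the immunoprecipitate, or a log2 occupancy of 1.58, and *Lamtor1* had 62.9 and 211 FPKM, at 1.41. *Iml1*, which encodes a subunit of the GATOR1 complex that inactivates the Rag GTPases, was the lowest, at −1.73, with 7.58 and 2.87 FPKM. The other GATOR1 genes *Nprl2* and *Nprl3* were at −0.20 and 0.02, so that the subunits of this complex were also spread. *Wdr59*, of the opposing GATOR2 complex, was at −1.01.

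In the insulin branch, 2 of 10 genes were at least 2-fold below and 1 was 2-fold or more above it, and the median was −0.52. *chico*, the insulin receptor substrate, was the highest, at 1.06, from 12.7 FPKM in the input to 33.4 FPKM in the immunoprecipitate, though 72.1% of its span is shared with an antisense RNA gene. *Pi3K92E*, the catalytic subunit of PI3-kinase, was the lowest, at −1.18, with 16.8 and 9.34 FPKM. *InR*, the insulin receptor, was at −1.03, with 1.46 FPKM in the input against 0.90 FPKM in the immunoprecipitate, close to the minimum for a gene to be kept.

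Among the 9 energy and stress inputs to the Tsc1-gigas complex, the median was 0.10, and *AMPKalpha* was the only gene past the 2-fold rule. It encodes the catalytic subunit of the AMP-activated kinase and had 58.2 FPKM in the input against 13.7 FPKM in the immunoprecipitate, or a log2 occupancy of −2.42. Its span of 3361 bases was shorter than those of the low TOR genes, and its input level was higher. The other subunits of that kinase, *alc* and *SNF4Agamma*, were at 0.10 and −0.71. *scyl*, a stress-induced inhibitor of TORC1, was the highest of this list at just under 1.00, with 17.5 and 44.0 FPKM.

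Of 15 downstream genes kept, 2 were at least 2-fold above and 2 lay 2-fold or more below the median gene, with a median of 0.04. *Maf1*, a repressor of RNA polymerase III that TORC1 inhibits, was the highest at 1.48, from 124 FPKM in the input to 437 FPKM in the immunoprecipitate, followed by *eIF-4E*. *larp*, which encodes an RNA-binding protein that acts downstream of TORC1, was the lowest at −1.62, with 12.8 and 5.23 FPKM. The helicase gene *eIF-4a* was at −1.46, with 1873 and 856 FPKM.

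**Figure D4:**
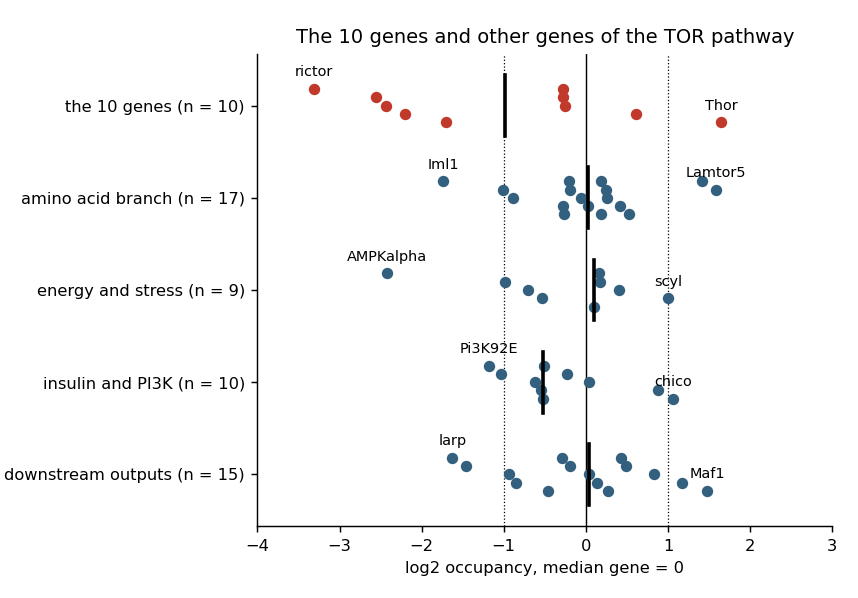
Log2 occupancy relative to the median gene for the 10 TOR genes and for 4 lists of other pathway genes, with 1 point per gene kept, black bars at the list medians, dotted lines at 2-fold from the median gene, and the lowest and highest gene of each list named; points are shifted vertically for clarity. The list medians lie between −0.52 and 0.10, above the median of −0.99 for the 10 TOR genes, and each list has genes on both sides of 0.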

How the data were processed

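RNA from input lysate and from an ME31B immunoprecipitate of stage 14 oocytes was rRNA-depleted, prepared with a stranded kit and sequenced by the authors as 50-base single-end reads, 1 library each. The submitters' processing notes and the paper's methods name bcl2fastq 2.17 for conversion, STAR 2.5.2a for mapping to the dm6 build and Cufflinks 2.2.1 for quantification. The deposited values are FPKM per gene, with no stated scaling between libraries. The sources used here do not give the annotation release, the use of strand or the handling of multi-mapped reads.

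Following the methods, occupancy was computed for genes above 0.5 FPKM, here in both libraries, on a log2 scale with no pseudocount and relative to the median gene. Genes were counted by a fixed 2-fold rule. With 1 library per condition no test was possible. The 10 genes and the pathway lists were chosen with earlier results of these data known. Of each pathway list, the highest, the lowest and every gene past 2-fold were named, with *Lst8*, *eIF-4E* and the 3 genes nearest to the highest and lowest TOR gene; *Nprl2*, *Nprl3*, *Lamtor2*, *Lamtor3*, *Lamtor4*, *alc*, *SNF4Agamma* and *Mipp2* were added after their values were seen. Names and coordinates came from the RefSeq table of Release 6, matched for 6858 of 6886 genes and all 10 TOR genes. Trends were removed as a running median over 201 protein-coding genes. Alternatives changed centring, filter, pseudocount, fold rule and these trends. The code of the fold rule and the trend step was run on simulated data. Those data had planted shifts larger than the rule and less spread than the real occupancies, so wrong calls here were not tested. Analysis used Python 3.11.15, pandas 2.3.3, NumPy 2.4.6 and SciPy 1.17.1.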

Additional observations from a re-analysis of the deposited data

How the results depend on the processing

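The trend on input FPKM was added after the data were seen. No paired analysis was possible because neither library had a replicate. Adjustment for protein length was not run. Under every setting that gave all 10 genes a value, *Tor*, *raptor*, *rictor*, *gig* and *Tsc1* were the 5 genes past the lower limit. Of all genes with a value, the share past that limit ran from 3.93% without a filter to 26.3% at the 1.5-fold rule. With a minimum of 5 FPKM in both libraries, which only 6 of the genes passed, 2 were below, 0 were above, and the median of the 6 was −0.33, against 13.2% of all genes below and 8.17% above. This follows from the filter itself, which removes *Tor*, *rictor* and *gig* for their low immunoprecipitate values and *Thor* for its low input value. The 1.5-fold rule placed 2 of the 10 genes above, against 23.8% of all genes kept. The median of the 10 genes was −0.66 without centring and −0.62 without a filter at pseudocount 0.5. Without a filter the median log2 ratio of all genes was 0, so that setting was in effect also without centring. *raptor* minus the mean of *rictor* and *Sin1* was −0.023 once the trend on genomic span was removed. *Thor* and *S6k* minus *Tor*, *raptor*, *rictor* and *Sin1* was 2.42 without a filter and 2.34 without the span trend. *Rheb* minus *gig* and *Tsc1* was 2.54 without a filter, 2.03 without the span trend and 2.04 without the trend on input FPKM. Of all genes kept, 1048 were below and 653 above as reported, with 38.4% of calls above. The corresponding values were 630, 1395 and 68.9% without centring. They were 1808, 1639 and 47.5% at 1.5-fold, and 410, 123 and 23.1% at 3-fold. Without a filter they were 662, 1461 and 68.8%, counted over all 16863 genes of the table. No setting turned the direction of a gene past 2-fold. Values within 0.2 on the log2 scale were taken as equal, because no replicate spread exists. Read depth is unknown, so the precision of low values such as *Thor* in the input or *gig* in the immunoprecipitate cannot be stated.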
